A study of Mus musculus with 16 samples.

Results

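The 8 genes described here encode enzymes that make UDP-N-acetylglucosamine (UDP-GlcNAc) and that put O-linked GlcNAc on proteins or take it off. The set is Mgea5, Ogt, Gfpt1, Gfpt2, Nagk, Pgm3, Uap1 and Gnpnat1, taken by name from 22196 genes, and all 8 passed the filter on low counts that left 12506 genes for testing. Mgea5 was chosen by its measured levels in these libraries, which moved in opposite directions with metformin on the 2 diets, so its values are given as a description with no test, and the other 7 genes were tested. Whole inguinal glands of mid-lactation mice gave 16 RNA sequencing libraries, 4 in each of 4 groups, with an age label of postnatal day 16 in all groups. Lactating mice are adults, so this day cannot be the age of the sampled animals. The groups were NCD with metformin, NCD control, HFD with metformin and HFD control, where HFD is a high fat diet, metformin is a drug that lowers blood glucose, and the labels do not expand NCD. No strain, transgene or deletion is given in the labels, and they do not tell whether each library is a separate animal. The p-values therefore speak of the spread among these libraries alone, and that spread may be technical.

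The hexosamine pathway turns fructose-6-phosphate and glutamine into UDP-GlcNAc. The amidotransferases Gfpt1 and Gfpt2 carry out the rate-limiting entry step, Gnpnat1 acetylates the product, Pgm3 moves its phosphate, Uap1 attaches the nucleotide, and Nagk returns salvaged GlcNAc to the same pool. Ogt uses UDP-GlcNAc to modify serine and threonine residues of nuclear and cytosolic proteins, and the O-GlcNAcase encoded by Mgea5 (also called Oga) removes that sugar. In the lactating gland the same sugar nucleotide also feeds the N-linked glycans of secreted and membrane proteins.

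Libraries held 8649316 to 39156617 gene counts, with HFD control 4 the shallowest. Levels are in CPM (counts scaled to the library total after TMM adjustment). Markers of luminal epithelium, the milk-secreting cells, summed to 237700 to 248600 CPM in NCD metformin, 213800 to 244200 in NCD control, 260400 to 348600 in HFD metformin and 242400 to 298600 in HFD control. None of these 8 markers was called in any comparison, and the only one at 0 was Elf5, in NCD metformin 3 and HFD control 4. The 10 skeletal muscle markers summed to 3486 CPM in NCD control 3 and 133 CPM in HFD metformin 1, against 0.751 to 25.7 CPM in the other 14 libraries. These are whole-gland libraries, in which fewer cells of a type and less RNA per cell cannot be told apart.

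The deposited references are coding sequences, and the transcripts of these genes differ in ways that bear on their values. Ogt lies on the plus strand at chrX:101640060-101684351 (GENCODE M21, GRCm38), and its long and short transcripts differ in coding sequence by 30 bases at the end of exon 2 (chrX:101642976-101643005). Gfpt1 lies on the plus strand at chr6:87042846-87092197, and 1 of its transcripts holds an exon of 48 bases, exon 9 (chr6:87060785-87060832), that the main transcript lacks. A longer form of this enzyme with a short insert is known from skeletal muscle. Both stretches are shown in lower case because reads over them are what tells the forms apart.
Ogt long transcript only: aaccaacgaaacgtatgctttccttccaag
Gfpt1 with the extra exon only: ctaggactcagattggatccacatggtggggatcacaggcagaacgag

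Gfpt1 and Ogt had the most similar profiles of any 2 of the 8 genes, and their promoters are shown with that of Mgea5, which is less like either. The RefSeq windows (GRCm38.p6), found for 7 of the 8 genes and not for Gnpnat1, were searched over the 250 bases before the annotated start for the GC box GGGCGG on either strand (CCGCCC on the other), with overlapping matches counted separately and shown in capitals. Of 32851 such windows of all genes, 32.7% held at least 1 match. The window of Gfpt1 (chr6:87042596-87042845, plus strand) held 4 matches, that of Ogt (chrX:101639801-101640050, plus strand, the upstream 1 of 2 windows) held 1, and that of Mgea5 (chr19:45783554-45783803, minus strand) held 0. The Mgea5 window lay inside the gene as GENCODE M21 places it, with a 5′ end at chr19:45783837, unlike the printed Gfpt1 and Ogt windows. The bases before that GENCODE end were not searched, so the Mgea5 count is of an unlike region. Of the genes whose windows are not printed, Pgm3 and Uap1 had 5 matches each, Gfpt2 had 2 and Nagk had 1. Uap1 was unlike Gfpt1 and Ogt in profile, with Pearson correlations of log2 CPM of -0.23 and -0.06 over the 16 libraries. A match is a description of the letters and not of binding.
Mgea5 promoter: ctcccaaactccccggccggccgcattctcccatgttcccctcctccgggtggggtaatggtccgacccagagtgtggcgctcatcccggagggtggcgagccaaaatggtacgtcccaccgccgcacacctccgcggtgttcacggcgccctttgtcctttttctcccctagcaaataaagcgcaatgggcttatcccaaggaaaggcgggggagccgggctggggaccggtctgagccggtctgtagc
Ogt promoter: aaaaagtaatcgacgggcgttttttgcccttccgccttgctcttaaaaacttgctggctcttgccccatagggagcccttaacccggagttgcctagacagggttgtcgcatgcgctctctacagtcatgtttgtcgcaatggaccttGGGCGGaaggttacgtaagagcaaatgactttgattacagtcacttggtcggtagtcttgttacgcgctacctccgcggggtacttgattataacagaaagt
Gfpt1 promoter: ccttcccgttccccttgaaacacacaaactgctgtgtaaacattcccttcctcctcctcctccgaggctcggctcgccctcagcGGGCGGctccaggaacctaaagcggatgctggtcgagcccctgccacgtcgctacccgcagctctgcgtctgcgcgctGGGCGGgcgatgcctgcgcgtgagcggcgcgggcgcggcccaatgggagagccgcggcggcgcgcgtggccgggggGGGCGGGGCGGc

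Per unit of coding length, in deposited TPM (a length-corrected share of transcripts) summed per gene, the medians of the 8 genes are given here in falling order. Mgea5, the removing enzyme, ranged from 12.9 to 25.1 TPM over the 16 libraries with a median of 18.3. Nagk had a median of 13.4 TPM (11.5 to 20.6), Uap1 8.05 TPM (6.62 to 9.21), Gnpnat1 7.69 TPM (4.85 to 17.8) and Ogt 6.3 TPM (3.32 to 7.92). Pgm3 had a median of 2.39 TPM (1.55 to 4.63), Gfpt1 1.2 TPM (0.786 to 3.17) and Gfpt2 0.158 TPM (0.0623 to 0.327). Neighbours in this order overlapped in range, except Nagk with Uap1 and Gfpt1 with Gfpt2, and Gnpnat1 also overlapped Nagk and Mgea5. The place of Mgea5 rests on a transcript of short coding length: its full-length transcript alone had a median of 5.52 TPM, below the medians of Uap1, Gnpnat1 and Ogt. The highest Gnpnat1 value, in HFD control 4, stood on 47 counts, and 10.43 of its 17.8 TPM came from 1.1 estimated reads on a transcript of 153 bases. The main Gnpnat1 transcript alone had a median of 5.72 TPM, below the median of Ogt, and reached 7.81 TPM at most. The place of Gnpnat1 above Ogt and its overlap with Nagk and Mgea5 therefore rest on a few reads of short transcripts.

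**Figure D1:**
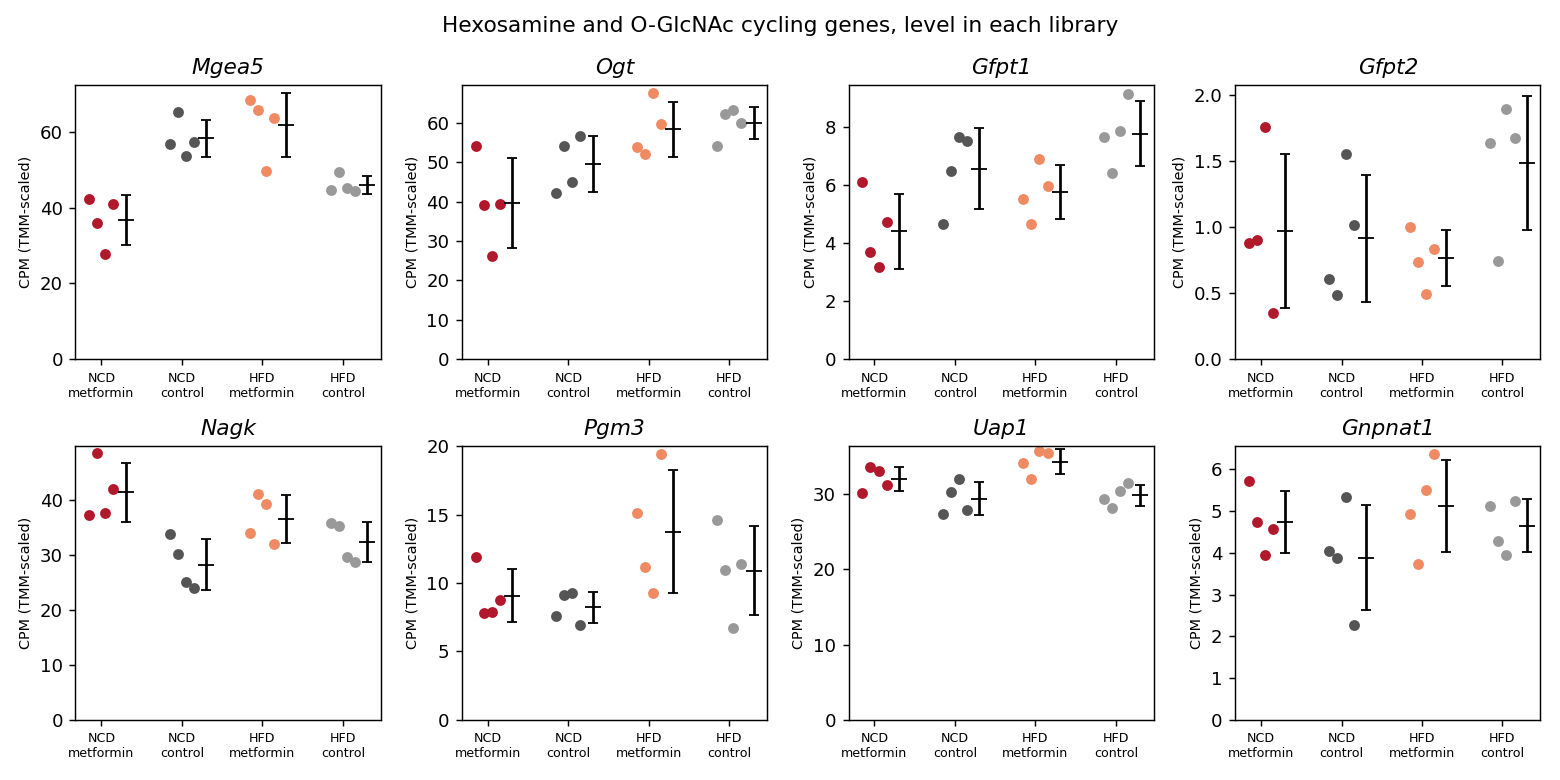
Level of each of the 8 genes in CPM after TMM scaling (vertical axis, from 0) in each library, by group; points are libraries and the bar beside them is the mean and SD of 4. Mgea5 lies at 27.6 to 42.1 CPM in NCD metformin below 53.5 to 65.2 CPM in NCD control, and at 49.53 to 68.5 CPM in HFD metformin above 44.3 to 49.46 CPM in HFD control.

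Mgea5, on the minus strand at chr19:45750259-45783837, was low in metformin glands on NCD and high in metformin glands on HFD. Its level was 42.1, 35.9, 27.6 and 41.0 CPM in NCD metformin, against 56.9, 65.2, 53.5 and 57.3 CPM in NCD control. On HFD it was 68.5, 65.6, 49.53 and 63.6 CPM in metformin glands, against 44.7, 49.46, 45.0 and 44.3 CPM in controls. In CPM, which is after TMM scaling, the groups did not overlap on either diet. On HFD the margin between metformin library 3 and control library 2 was under 0.1 CPM. Without metformin library 3 the lowest HFD metformin value was 63.6 CPM. The separation on HFD depended on the scaling: in summed TPM HFD metformin 3 was at 12.95, below the HFD controls at 13.03 to 20.07. The 20.07 TPM of HFD control 4 held 4.09 TPM from 4.7 estimated reads on a transcript of 252 bases. The other HFD controls were at 13.03 to 14.09 TPM.

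The log2 fold change of Mgea5 with metformin was -0.67 ± 0.13 (SE) on NCD and 0.43 ± 0.13 on HFD, a difference between diets of 1.10 ± 0.18. Group means were 36.7 ± 6.61 CPM in NCD metformin, 58.2 ± 4.97 in NCD control, 61.8 ± 8.42 in HFD metformin and 45.9 ± 2.4 in HFD control (SD, n = 4 each). The same 16 values give the diet contrasts, in which the groups did not overlap in CPM either. Mgea5 was higher on HFD than on NCD among metformin glands (log2 fold change 0.75 ± 0.13) and lower on HFD than on NCD among control glands (-0.34 ± 0.13). These contrasts share libraries with the ones used to choose the gene. The order of the group means was therefore HFD metformin, NCD control, HFD control and NCD metformin, and the ranges of the HFD metformin and NCD control libraries overlapped.

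Sample titles carry numbers with a gap between 10 and 14, and the values on each side of it come from the same libraries that chose the gene. On NCD the log2 difference of Mgea5, metformin minus control, was -0.58 among titles up to 10 (2 libraries against 3) and -0.77 from 14 on (2 against 1). On HFD it was 0.61 among titles up to 10 (1 against 1) and 0.35 from 14 on (3 against 3). The labels do not say what the gap is.

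**Figure D2:**
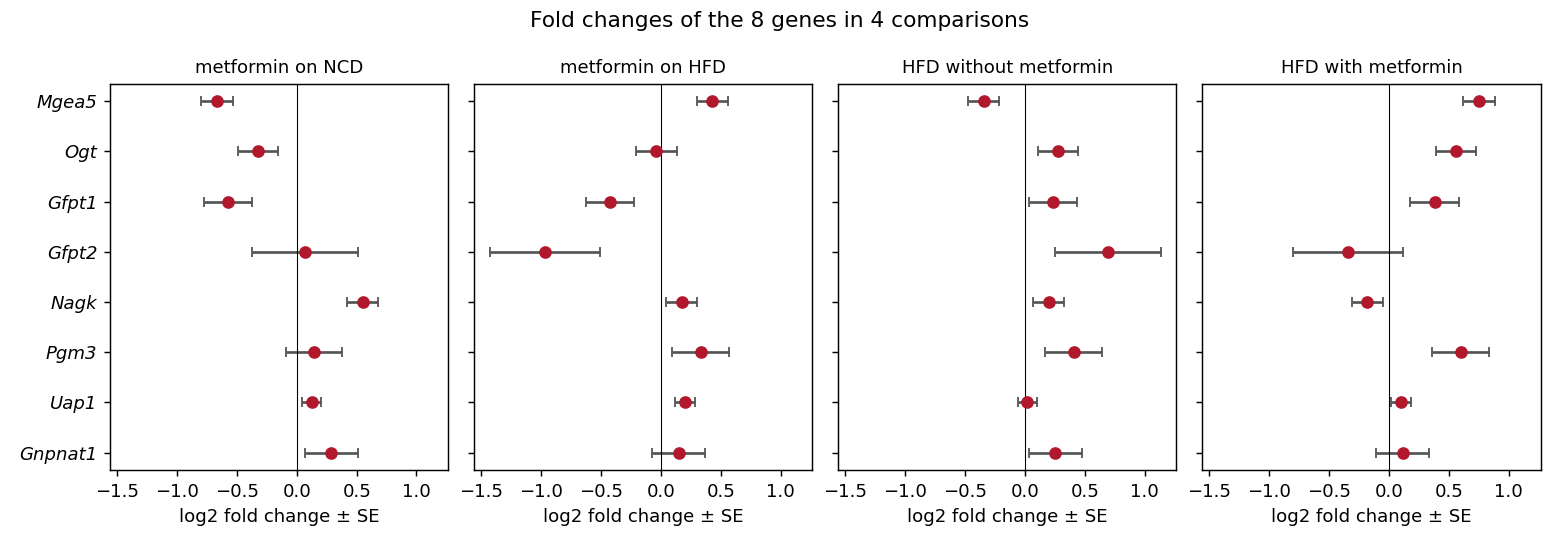
Log2 fold change (horizontal axis) of each gene with its SE in 4 comparisons: metformin against control on NCD and on HFD, and HFD against NCD among control and among metformin glands. Mgea5 sits at -0.67 and 0.43 in the metformin panels, while Gfpt1 sits at -0.57 and -0.42.

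Most Mgea5 counts were assigned to the full-length transcript, whose coding sequence is 2751 bases. The rest went almost wholly to a short transcript, whose 549 bases of coding sequence are the last bases of the full-length one, so no base in the references belongs to the short form alone. Full-length Mgea5 was at 4.84, 3.99, 2.86 and 4.39 TPM in NCD metformin, against 7.62, 8.0, 6.73 and 7.83 TPM in NCD control. On HFD it was at 6.68, 6.95, 4.54 and 7.31 TPM in metformin glands, against 4.995, 5.38, 5.17 and 5.65 TPM in controls. The NCD groups were separate in this transcript, and on HFD metformin library 3 lay below all 4 controls.

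The share of Mgea5 counts assigned to the short transcript was 22.8 ± 4.2% in NCD metformin (19.3 to 28.9%), 16.7 ± 2.31% in NCD control (13.7 to 19.1%), 17.8 ± 2.4% in HFD metformin (15.6 to 20.8%) and 15.2 ± 1.11% in HFD control (13.7 to 16.3%) (SD, n = 4 each). The share was highest in NCD metformin 3, the library with the lowest Mgea5 CPM. Because the short form covers only the 3′ end of the coding sequence, the share also moves with how reads are spread along the gene, and its part in the Mgea5 difference was not tested. In TPM summed over transcripts, where the short form weighs more, Mgea5 was 15.3 ± 1.37 in NCD metformin and 23.1 ± 2.44 in NCD control, and 19.6 ± 4.63 in HFD metformin and 15.3 ± 3.22 in HFD control. The HFD control mean and SD include the 20.07 TPM of HFD control 4, part of it from a few reads on the transcript of 252 bases.

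**Figure D3:**
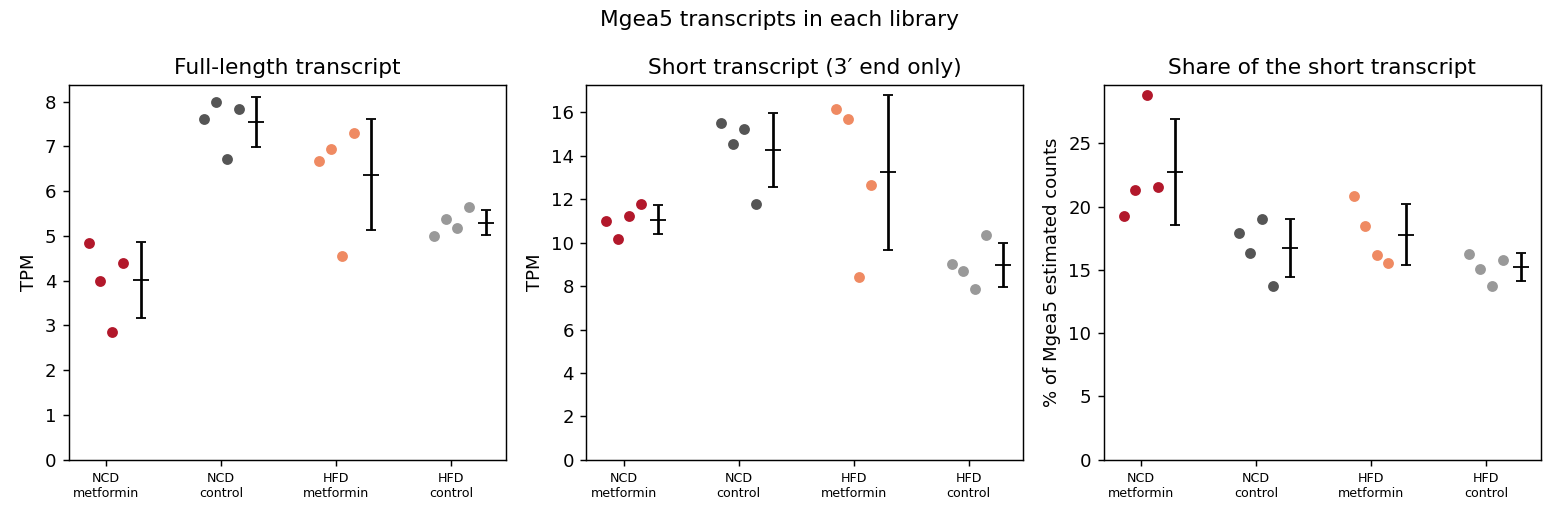
TPM of the full-length and of the short Mgea5 transcript and the share of the short one among Mgea5 estimated counts (vertical axes, from 0) in each library, with mean and SD of each group of 4. The short-form share is 19.3 to 28.9% in NCD metformin and 13.7 to 19.1% in NCD control.

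Ogt, the transferase that adds the sugar, did not pass the test in any comparison. It was at 54.1, 39.2, 26.1 and 39.3 CPM in NCD metformin, against 42.1, 54.2, 45.0 and 56.8 CPM in NCD control, with a log2 fold change of -0.32 ± 0.17 (adjusted p = 0.225). In HFD glands the values were 53.8, 52.2, 67.6 and 59.9 CPM in metformin glands, against 54.1, 62.2, 63.3 and 60.1 CPM in controls, with a log2 fold change of -0.04 ± 0.17 (adjusted p = 0.955). The groups overlapped on both diets, and NCD metformin 3 was the lowest of the 16 libraries, as it was for Mgea5.

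Ogt was closest to the threshold between diets among metformin glands, where the mean was 58.4 ± 6.99 CPM on HFD and 39.7 ± 11.4 CPM on NCD (SD, n = 4 each). The log2 fold change was 0.56 ± 0.17 with an adjusted p of 0.0843 in edgeR. DESeq2 gave 0.55 with an adjusted p of 0.0365, and edgeR without NCD metformin 1, the highest library of its group, gave 0.74 with an adjusted p of 0.0382. Among control glands Ogt averaged 59.9 ± 4.1 CPM on HFD and 49.5 ± 7.05 CPM on NCD (log2 fold change 0.27 ± 0.17, adjusted p = 0.832). The metformin effect on Ogt differed between the diets by 0.28 ± 0.24 (adjusted p = 0.737). The split of Ogt between its 2 transcripts was not stable: the long one took from 7.45 to 100% of the gene's counts over the libraries, so only the sum is used.

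The balance of transferase to hydrolase message is described by the log2 ratio of Ogt to Mgea5. With summed estimated counts it was 0.09 ± 0.21 in NCD metformin and -0.24 ± 0.17 in NCD control, and -0.08 ± 0.37 in HFD metformin and 0.38 ± 0.1 in HFD control (SD, n = 4 each). With TPM of full-length Mgea5 alone it was 0.26 ± 0.16 in NCD metformin and -0.18 ± 0.15 in NCD control, and -0.01 ± 0.34 in HFD metformin and 0.41 ± 0.09 in HFD control. With TPM summed over all transcripts it was -1.69 ± 0.37 in NCD metformin and -1.8 ± 0.31 in NCD control, and -1.62 ± 0.45 in HFD metformin and -1.1 ± 0.21 in HFD control. The mean ratio was higher with metformin on NCD and lower with metformin on HFD in each of these 3 forms, but its size on NCD depended on the form. HFD metformin 3 stood apart from its group, at 0.45 in counts against -0.35 to -0.09 in the other HFD metformin libraries. The ratio holds Mgea5 and has no test.

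**Figure D4:**
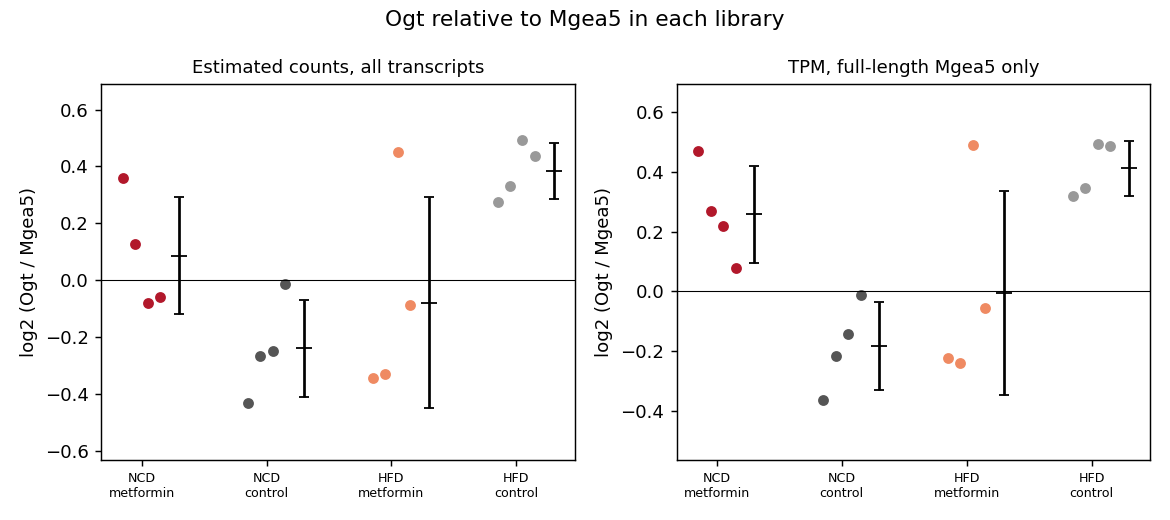
Log2 ratio of Ogt to Mgea5 (vertical axis, not from 0) in each library, from summed estimated counts and from TPM with full-length Mgea5 only; points are libraries and bars mean and SD of 4. Group means in counts are 0.09 in NCD metformin, -0.24 in NCD control, -0.08 in HFD metformin and 0.38 in HFD control.

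Gfpt1, the main entry enzyme, had lower means with metformin on both diets, and neither difference passed the test. It was at 6.1, 3.68, 3.16 and 4.72 CPM in NCD metformin, against 4.65, 6.47, 7.65 and 7.52 CPM in NCD control (log2 fold change -0.57 ± 0.20, adjusted p = 0.076). On HFD it was at 5.54, 4.66, 6.89 and 5.96 CPM in metformin glands, against 7.67, 6.42, 7.88 and 9.15 CPM in controls (log2 fold change -0.42 ± 0.20, adjusted p = 0.398). All 4 metformin libraries lay below the control mean on each diet, though the groups overlapped. Without NCD metformin 1 the NCD log2 fold change was -0.76 with an adjusted p of 0.0327. Metformin effects on the 2 diets differed by 0.15 ± 0.29 (adjusted p = 0.906). Gfpt1 was not called between diets, with a log2 fold change of 0.38 ± 0.20 among metformin glands (adjusted p = 0.321) and 0.23 ± 0.20 among controls (adjusted p = 0.911).

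The muscle-marker library NCD control 3 was the only one of the 16 with reads assigned to the form with the extra 48-base exon printed above. It had 23.6 estimated reads, or 9.77% of its Gfpt1 counts, and the other 15 libraries had 0. Without those reads its Gfpt1 level was 6.9 in place of 7.65 CPM, within the range of the other NCD controls.

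Gfpt2, the other isozyme (plus strand, chr11:49794178-49838613), was near the limit of detection, with 11 to 61 counts per library. It was at 0.877, 0.903, 1.76 and 0.352 CPM in NCD metformin, against 0.606, 0.488, 1.56 and 1.02 CPM in NCD control (log2 fold change 0.07 ± 0.44, adjusted p = 0.941). For HFD the libraries read 1.0, 0.74, 0.492 and 0.836 CPM in metformin glands, against 1.64, 0.742, 1.9 and 1.67 CPM in controls (log2 fold change -0.97 ± 0.46, adjusted p = 0.393). The groups overlapped on both diets, on HFD through control library 2.

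Gfpt2 made up a small part of the pair in every group. Its share of Gfpt1 plus Gfpt2 TPM was 13.8 ± 8.97% in NCD metformin and 9.82 ± 4.74% in NCD control, and 10.4 ± 4.43% in HFD metformin and 15.3 ± 3.8% in HFD control (SD, n = 4 each). A few reads on a short Gfpt1 transcript of 375 bases lower the share in some libraries. In NCD control 4, 14.3 estimated reads on it made 1.53 of the 3.17 Gfpt1 TPM, and the Gfpt2 share was 6.11%. A two-sided exact permutation test gave p = 0.6 for metformin on NCD, 0.143 for metformin on HFD, 0.114 for HFD against NCD among controls and 0.6 among metformin glands, unadjusted over these 4 comparisons. NCD metformin 3 alone had a share of 26.7%, and without it the NCD metformin mean was lower than the control mean by 0.352 percentage points.

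The 3 enzymes between the entry step and UDP-GlcNAc were not called in any comparison. Uap1, the pyrophosphorylase that makes UDP-GlcNAc (minus strand, chr1:170141938-170174957), was the steadiest of the 8, with a spread within groups of 0.081 on the log2 scale. On HFD it was at 34.2, 32.0, 35.7 and 35.5 CPM in metformin glands, against 29.4, 28.2, 30.4 and 31.5 CPM in controls. These groups did not overlap in CPM, and the log2 fold change was 0.20 ± 0.08 (adjusted p = 0.312). In summed TPM they did overlap, at 7.11 to 8.91 in metformin glands and 6.62 to 8.90 in controls. On NCD the means were 32.0 ± 1.6 CPM in metformin glands and 29.4 ± 2.16 CPM in controls (log2 fold change 0.12 ± 0.08, adjusted p = 0.343). Between diets its log2 fold change was 0.10 ± 0.08 among metformin glands and 0.02 ± 0.08 among controls (adjusted p = 0.543 and 0.995).

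Pgm3, the phosphomutase (minus strand, chr9:86554377-86571842), was the most variable of the 3, with a spread within groups of 0.372 on the log2 scale. It averaged 9.08 ± 1.92 CPM in NCD metformin and 8.21 ± 1.14 in NCD control, and 13.8 ± 4.48 in HFD metformin and 10.9 ± 3.24 in HFD control (SD, n = 4 each). Its largest log2 fold change was between HFD and NCD among metformin glands, 0.60 ± 0.24 with an adjusted p of 0.169, and HFD metformin libraries spanned 9.31 to 19.4 CPM. Gnpnat1, the acetyltransferase (minus strand, chr14:45376334-45404913), averaged 4.74 ± 0.738 CPM in NCD metformin and 3.88 ± 1.26 in NCD control, and 5.13 ± 1.1 in HFD metformin and 4.65 ± 0.633 in HFD control. Its log2 fold change was 0.29 ± 0.22 with metformin on NCD and 0.15 ± 0.22 with metformin on HFD (adjusted p = 0.411 and 0.824).

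Nagk, the kinase of the salvage route (plus strand, chr6:83794982-83804018), rose with metformin on NCD. It was at 37.3, 48.6, 37.6 and 42.0 CPM in NCD metformin, against 33.8, 30.2, 25.1 and 24.0 CPM in NCD control, and the groups did not overlap in CPM. In summed TPM they did, through NCD metformin 1 (16.23) and NCD control 1 (16.54). The log2 fold change was 0.55 ± 0.13 with an adjusted p of 0.021, and all 4 metformin libraries lay above the control mean. The HFD values were 33.9, 41.1, 39.2 and 32.0 CPM in metformin glands, against 35.8, 35.2, 29.6 and 28.8 CPM in controls, and these overlapped (log2 fold change 0.17 ± 0.13, adjusted p = 0.621). The difference between the diets was -0.38 ± 0.19 with an adjusted p of 0.509.

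The call of Nagk held in 22 of 25 alternative fits. It was lost without NCD control 3 (adjusted p = 0.0531), NCD control 4 (0.052) or NCD metformin 2 (0.0809), each with a positive fold change. Within the title numbers up to 10 the log2 difference on NCD was 0.53, and from 14 on it was 0.73. Between diets Nagk did not pass the test, with a log2 fold change of -0.18 ± 0.13 among metformin glands (adjusted p = 0.489) and 0.20 ± 0.13 among controls (adjusted p = 0.856).

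Across the comparisons Nagk on NCD was the single call among the 7 tested enzymes. With metformin on NCD 1 of the 7 was called, where 10% of the 12506 genes were called. It was also the only 1 of the 7 whose groups did not overlap in CPM, where 18.6% of genes did not. With metformin on HFD none was called (0.168% of genes), and Uap1 alone had groups without overlap in CPM (6.65% of genes). Between diets none was called among controls (0.064% of genes) or among metformin glands (2.36% of genes), and none had groups without overlap (4.12% and 10.2% of genes). The metformin contrasts are those that placed Mgea5 in the set. For the difference of the metformin effects between diets edgeR called 0 of the 12506 genes (0%), with 1243 at an unadjusted p under 0.05, and DESeq2 called 22 genes, none of them among the 7. The median log2 fold change over the 8 genes was 0.10 with metformin on NCD and 0.16 on HFD, beside -0.003 and 0.004 over all genes tested.

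Fold changes of all genes moved with coding length. With metformin on NCD the median was 0.13 for the 3932 genes of up to 1000 coding bases, -0.01 for the class up to 2000, -0.09 for the class up to 3000, and -0.20 for the 1811 genes over 3000. With metformin on HFD the same classes had medians of 0.09, -0.004, -0.04 and -0.08. Of the 8 genes Ogt (3141 bases at the longest) and Mgea5 (2751 bases) are the longest, followed by Gfpt2 (2049 bases) and the main transcript of Gfpt1 (2046 bases), and the main transcripts of Nagk (1032 bases) and Gnpnat1 (555 bases) are the shortest. With a trend on coding length removed, the log2 fold change of Mgea5 was -0.54 on NCD and 0.48 on HFD, and that of Nagk on NCD was 0.50 (adjusted p = 0.0279).

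**Figure D5:**
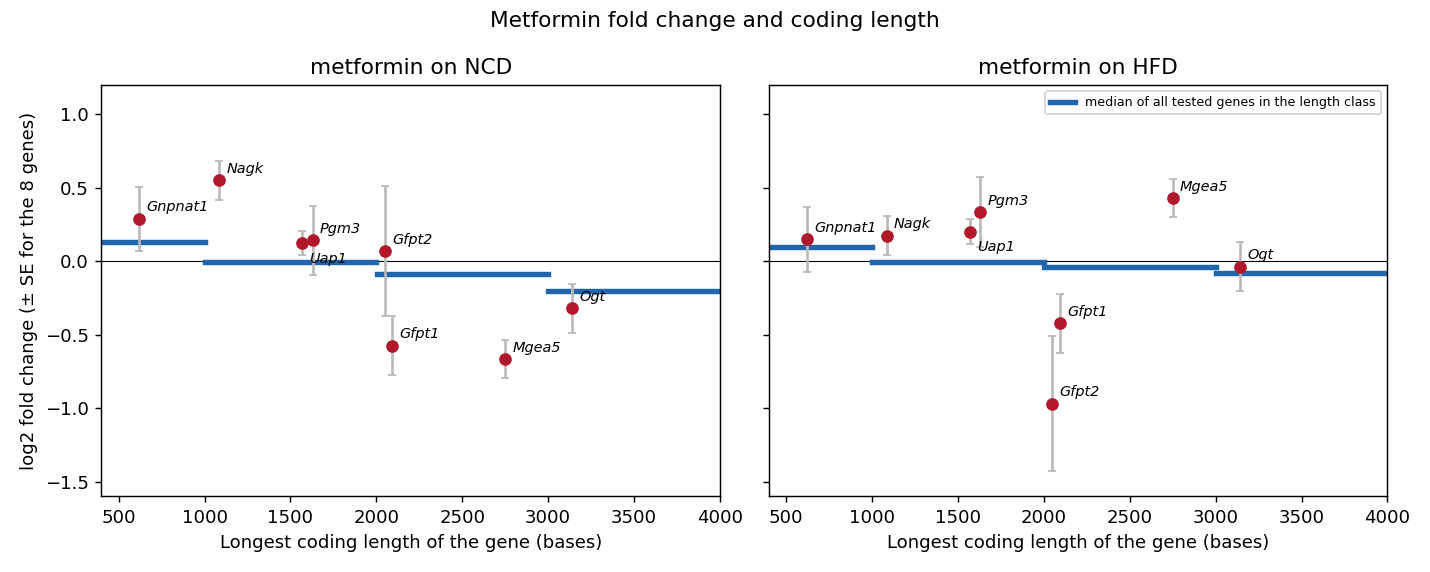
Log2 fold change with metformin (vertical axis) against the longest coding length of each gene in bases (horizontal axis), on NCD and on HFD; points are the 8 genes with SE and blue lines the median of all tested genes in each length class. The class medians fall from 0.13 to -0.20 on NCD and from 0.09 to -0.08 on HFD.

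Some markers of other cells were called with metformin on NCD, where 4.01% of all genes were called higher and 6.03% lower. A single call in a list of 7 or 8 is too few to set apart from these shares. All 7 endothelial markers were detected in every library, 1 of the 7 (Kdr, log2 fold change 0.75) was called higher, and their sum was 67.0 to 112 CPM in NCD metformin and 55.7 to 75.4 CPM in NCD control. Of the 8 macrophage markers, none at 0 in any library, 1 was called lower (Cd14, log2 fold change -1.46), and the sum was 74.2 to 101 CPM in NCD metformin and 101 to 153 CPM in NCD control. On NCD 6 of the 7 endothelial markers (median 0.37) and 0 of the 8 macrophage markers (median -0.21) had positive log2 fold changes with metformin. On HFD 2 of the 7 (median -0.14) and 3 of the 8 (median -0.14) had positive ones. Of the 10 muscle markers 9 were called lower, where NCD control 3 held the high values. Of the 8 adipocyte markers 7 had positive log2 fold changes with metformin on each diet, where 49.7% of all genes did on NCD and 50.5% on HFD. Their medians were 0.45 on NCD and 0.43 on HFD, and their sum was 403.8 to 920.8 CPM in NCD metformin and 210.3 to 1096 CPM in NCD control. Between diets among metformin glands Cd14 was called higher on HFD (log2 fold change 1.27) and Kdr lower (-0.82), where 1.86% of all genes were called higher and 0.504% lower. None of the 8 adipocyte, 6 myoepithelial or 4 tested lymphocyte markers was called in any comparison. The part of these cells in the Mgea5 and Nagk differences was not tested. With NCD control 3, HFD metformin 1 and HFD control 4 left out, Nagk had a log2 fold change of 0.49 with metformin on NCD (adjusted p = 0.0477) and Mgea5 one of -0.71.

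Around the 8 enzymes, genes that divert or recover UDP-GlcNAc had mostly positive log2 fold changes with metformin, 10 of 11 on NCD and 9 of 11 on HFD (49.7% and 50.5% of all genes), with medians of 0.33 and 0.20. On NCD 2 of the 11 were called higher, where 4.01% of genes were. Gne, the epimerase and kinase that commits UDP-GlcNAc to sialic acid, averaged 60.3 ± 6.06 CPM in NCD metformin and 47.2 ± 2.18 CPM in NCD control (log2 fold change 0.35 ± 0.09, adjusted p = 0.0297), and it was called in 16 of 25 alternatives. The call was lost without any 1 of the 4 NCD controls, without NCD metformin 2 or 3, with scaling by library size (adjusted p = 0.0778) and with NCD control 3, HFD metformin 1 and HFD control 4 left out (adjusted p = 0.0613). In counts rebuilt from TPM the log2 fold change of Gne was 0.06 (adjusted p = 0.862).

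Renbp, which interconverts N-acetylmannosamine and GlcNAc, was the 1 gene of the 11 called with metformin on HFD, where 0.128% of all genes were called higher. It was at 27.0, 24.9, 15.5 and 18.9 CPM in HFD metformin, against 7.94, 8.03, 9.74 and 5.92 CPM in HFD control (log2 fold change 1.43 ± 0.18, adjusted p = 0.00365), a call held in 23 of 25 alternatives with log2 fold changes of 0.93 to 1.54. It was lost in counts rebuilt from TPM (adjusted p = 0.413) and with only the groups compared (0.0536). Among controls it was lower on HFD than on NCD (log2 fold change -1.08 ± 0.18, adjusted p = 0.0348), a call lost without any 1 of 9 of the 16 libraries, while the fold change stayed negative in all 25 alternatives, at -1.25 to -0.36, the smallest in counts rebuilt from TPM (adjusted p = 0.97). Among controls 0.048% of all genes were called lower on HFD. These 2 comparisons share the HFD controls.

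Of 11 genes that supply sugar or glutamine, 1 was called with metformin on NCD, where 10% of all genes were. This was Galk1, the galactokinase, at 15.9 ± 1.14 CPM in metformin glands and 11.6 ± 1.45 CPM in controls (log2 fold change 0.45 ± 0.10, adjusted p = 0.0191). This call was lost without NCD control 1, NCD control 2 or NCD metformin 2. On HFD its log2 fold change was 0.48 ± 0.11 (adjusted p = 0.0856). Glul, which makes the glutamine that Gfpt1 consumes, was at 373 ± 61.4 CPM on HFD and 215 ± 17.9 CPM on NCD among metformin glands (log2 fold change 0.79 ± 0.15, adjusted p = 0.0322), the 1 call of 11 in that comparison, where 2.36% of all genes were called. It was lost without HFD metformin 1, HFD metformin 2, NCD metformin 2 or NCD metformin 3, with NCD control 3, HFD metformin 1 and HFD control 4 left out (adjusted p = 0.0717) and in counts rebuilt from TPM (0.0626).

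Of 12 tested genes that use UDP-GlcNAc in the secretory pathway, 1 was called in either of 2 comparisons, the N-glycan branching enzyme Mgat4a, where 10% of all genes were called with metformin on NCD and 2.36% between diets among metformin glands. It was lower with metformin on NCD (log2 fold change -0.87 ± 0.26, adjusted p = 0.0427) and higher on HFD among metformin glands (1.06 ± 0.26, adjusted p = 0.046), with 1.08 ± 0.44 CPM in NCD metformin, 2.0 ± 0.34 in NCD control and 2.26 ± 0.0733 in HFD metformin. These contrasts share the NCD metformin libraries, and the calls were lost without any 1 of 12 libraries on NCD and of 13 libraries between diets. They held in 7 of 25 alternatives on NCD and 4 of 25 between diets. Both were also lost with all libraries kept: without the filter, with the title term, with the length trend removed and in counts rebuilt from TPM.

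Of 12 genes for partners and cofactors of Ogt, 5 fell with metformin on NCD and 0 rose, where 6.03% of all genes were called lower. The median log2 fold change of the 12 was -0.38, beside -0.003 over all genes. Tet2, a dioxygenase of methylated DNA that binds Ogt, was at 1.22, 0.702, 0.316 and 0.868 CPM in NCD metformin, against 2.42, 2.8, 3.14 and 2.45 CPM in NCD control (log2 fold change -1.79 ± 0.32, adjusted p = 0.00788), and its call held in 24 of 24 alternatives that could test it. Asxl1, a chromatin protein found in complexes with Ogt, averaged 22.2 ± 1.27 CPM in NCD metformin and 32.1 ± 3.02 CPM in NCD control (log2 fold change -0.53 ± 0.11, adjusted p = 0.0149), a call lost without NCD metformin 2 and with the trend on coding length removed (-0.34, adjusted p = 0.0674).

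The other 3 were Tet3, a paralogue of Tet2 (log2 fold change -0.71 ± 0.20, adjusted p = 0.0403), and the protein phosphatase 1 subunits Ppp1cb (-0.41 ± 0.12, adjusted p = 0.0447) and Ppp1r12a (-0.45 ± 0.13, adjusted p = 0.0407). Their calls were lost without any 1 of 7 libraries for Tet3, 11 for Ppp1cb and 8 for Ppp1r12a. They held in 14, 9 and 11 of 25 alternatives in that order. With the trend on coding length removed 2 of the 12 were called lower, Tet2 and Ppp1cb, and the median was -0.27, and with NCD control 3, HFD metformin 1 and HFD control 4 left out 3 were called. On HFD none of the 12 was called with metformin, with a median of -0.05. Among metformin glands 3 of the 12 were higher on HFD than on NCD (Tet2, Asxl1 and Ppp1r12a, adjusted p = 0.041, 0.0367 and 0.046), where 1.86% of genes were called higher, and this comparison shares the NCD metformin libraries with the one above. None was called with those 3 libraries left out or with scaling by library size, and with the length trend removed 1 was, Tet2 (adjusted p = 0.0487). The calls were lost without any 1 of 10 libraries for Tet2, 7 for Asxl1 and 13 for Ppp1r12a. They held in 11 of 24 alternatives for Tet2, 13 of 25 for Asxl1 and 5 of 25 for Ppp1r12a.

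Of 6 genes linked to the control of hexosamine genes (5 transcription factors and the chaperone Hspa5), 1 was called with metformin on NCD, where 6.03% of genes were called lower. This was Sp1, a factor that binds GC boxes and carries O-GlcNAc. It averaged 1.83 ± 0.651 CPM in metformin glands and 3.82 ± 0.264 CPM in controls (log2 fold change -1.05 ± 0.26, adjusted p = 0.0248), a call lost without NCD control 1, NCD metformin 2 or NCD metformin 3, and the log2 fold change was -2.15 in counts rebuilt from TPM. Xbp1, a factor of the unfolded protein response, was lower on HFD than on NCD among metformin glands (71.2 ± 10.2 CPM on HFD and 98.8 ± 5.78 CPM on NCD, log2 fold change -0.47 ± 0.12, adjusted p = 0.0489), where 0.504% of genes were called lower. This call was lost without any 1 of 13 of the 16 libraries and held in 5 of 25 alternatives.

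Over the 16 libraries, as a description, the highest Pearson correlation of log2 CPM between 2 of the 8 genes was 0.80, between Gfpt1 and Ogt, and the next was 0.63, between Gnpnat1 and Pgm3. Mgea5 and Ogt had a correlation of 0.59. Gfpt1 and Nagk ran most strongly the opposite way, with -0.69. These coefficients include the differences between groups, and all genes of a library share its depth and scaling. NCD metformin 3 was the lowest of the 16 libraries for Mgea5 (27.6 CPM), Ogt (26.1 CPM) and Gfpt1 (3.16 CPM). No coefficient was computed without it. Among 10265 genes averaging 1 CPM or more, the 5 most like Mgea5 were Aftph (0.863), Mertk (0.86), Baz1b (0.857), Zmym5 (0.857) and Fam160b1 (0.855). Each of these 5 was also lowest in NCD metformin 3.

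All 5 had negative log2 fold changes with metformin on NCD and positive ones on HFD. With metformin on NCD their log2 fold changes were -0.34 for Aftph, -0.53 for Mertk, -0.18 for Baz1b, -0.69 for Zmym5 and -0.65 for Fam160b1. With metformin on HFD they were 0.09 for Aftph, 0.47 for Mertk, 0.11 for Baz1b, 0.14 for Zmym5 and 0.16 for Fam160b1, and of the 5 only Mertk was near the 0.43 of Mgea5. They were picked for likeness over these same libraries and have no test.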

How the data were processed

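For each of 16 libraries the authors deposited, per the file headers, Salmon output with an estimated count and a TPM per transcript, TPM being scaled by effective length. The submitters' processing notes name Salmon 1.3.0, DESeq2 1.28.1 and GRCm38.p6, with no role or order. Per the labels' protocols, a Qiagen RNeasy Mini kit and a directional NEBNext Ultra II kit were used. Options for strand or bias are not given in the sources used. All 56929 transcripts with a coding sequence in GENCODE M21 had a listed length within 3 bases of it, so untranslated regions are not measured.

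Estimated counts of 57452 of 58204 transcripts were summed to 22196 genes and rounded. The other 752, with 0.165 to 0.218% of counts, had no match. A floor of 3 counts is 0.077 to 0.347 CPM by the library total before TMM scaling, which covers counting error only. All 16 libraries were fitted together with edgeR 4.0.16 (R 4.3.3), using filterByExpr, TMM scaling, 4 group means and the two-sided quasi-likelihood test, with Benjamini-Hochberg adjustment over 12506 genes and calls at 0.05. The SE is the log2 fold change over the root of its F. The test was checked on simulated data. Alternatives were DESeq2 1.42.0, other scalings and filters, a term for title numbers and leaving out libraries. The trend on coding length, leaving out 3 libraries and the transcript-level values were chosen after seeing the data.

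The 8 genes, the other gene lists and the tests were chosen with earlier results of these data known. Named genes are the 8, the called genes of each pathway list, and the 5 most correlated with Mgea5 among those of at least 1 CPM, clone-like names passed over. A called gene of the side-branch list is not reported here.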

Additional observations from a re-analysis of the deposited data

Results flagged for a closer look

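With 4 libraries in a group, a library far from the other 3 was looked for in 32 sets of values (8 genes in 4 groups), where chance gives about 1 in 20, and 2 were found. Mgea5 was 49.5 CPM in HFD control 2, against 44.3 to 45.0 CPM in the other HFD controls. Gfpt2 was 0.742 CPM in HFD control 2, against 1.64 to 1.9 CPM in the other HFD controls.

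In 3 cases, by log2 CPM, every library of a pair of contrasts moved the opposite way. Mgea5 lay below the control mean in all 4 NCD metformin libraries and above it in all 4 HFD metformin libraries, a difference of 1.1 on the log2 scale, which has no test because the gene was chosen for it. Mgea5 was also lower on HFD in every control library and higher on HFD in every metformin library, where the log2 fold change was 0.75. Nagk was above the NCD mean in the HFD controls and below it in the HFD metformin libraries, with log2 fold changes of -0.18 among metformin glands and 0.20 among controls. The difference between these diet effects is the same contrast as the difference of metformin effects, -0.38 ± 0.19 with an adjusted p of 0.509 in edgeR. The Nagk groups overlapped in both diet contrasts, and some margins were small. HFD control 4 was at 28.8 CPM beside an NCD control mean of 28.2, and HFD metformin 2 at 41.1 beside an NCD metformin mean of 41.4. The share of all genes with such a pattern was not computed.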

How the results depend on the processing

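No paired analysis was possible because replicate numbers follow accession order only and the labels pair no libraries. Mgea5 kept its direction in all 25 alternatives of each simple contrast, from -0.74 to -0.47 with metformin on NCD and from 0.36 to 0.51 on HFD. These fits reuse the libraries that chose the gene, so its direction was largely set beforehand and the count is no test. The smallest NCD size (-0.467) and the smallest diet difference among metformin glands (0.531) came from counts rebuilt from TPM, where Gfpt2 fell to the filter.

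Counts over all genes were less stable. With library size scaling the calls were 7 for metformin on HFD, 39 for HFD among controls and 641 among metformin glands, and the median over all genes shifted to -0.16 and -0.18 in those diet contrasts. Uap1 then stood at -0.14 and -0.076 and Gnpnat1 at -0.062, both above that median, and Gfpt2 at -0.006 on NCD. With only the groups compared the calls were 1 for metformin on HFD and 91 for HFD among metformin glands. From rebuilt counts they were 619, 4 and 2 for metformin on NCD, on HFD and HFD among metformin glands, with Gnpnat1 at -0.085 and -0.211 and Gfpt1 at -0.167. The title term left 5 calls for HFD among controls. DESeq2 called 158, 22, 65 and 727 genes for metformin on HFD, the difference, and HFD among controls and metformin glands, and 1 of the 7 enzymes (Ogt) in the last. Without NCD control 3, HFD metformin 1 and HFD control 4 the calls were 2, 5 and 18 for metformin on HFD and the 2 diet contrasts. Ogt with metformin on HFD was then 0, and 0.035 with the length trend removed. The mean log2 ratio of Ogt to Mgea5, HFD minus NCD among metformin glands, was 0.0736 in TPM, -0.165 in counts and -0.263 with full-length Mgea5. The cause of these shifts was not tested.

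Leaving out 1 library at a time gave 180 to 1461 called genes for metformin on NCD, 3 to 44 on HFD, 0 to 1 for the difference, and 2 to 13 and 3 to 384 for the diet contrasts among controls and metformin glands. Of the 7 enzymes 0 to 2 were called with metformin on NCD and 0 to 1 for HFD among metformin glands. Gfpt2 ranged from -0.387 to 0.433 on NCD and from -0.636 to 0.104 for HFD among metformin glands, and its share difference from -0.352 to 6.27 and from -5.73 to 0.894 percentage points. Ogt on HFD ranged from -0.123 to 0.013, Pgm3 on NCD from -0.014 to 0.21 and its difference from -0.029 to 0.379. Uap1 for HFD among controls ranged from -0.014 to 0.056, and Gnpnat1 from -0.328 to 0.048 for the difference and from -0.014 to 0.246 for HFD among metformin glands. None of these was called. Depth limits Gfpt2 most, at 11 to 61 counts.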
